A study of Arabidopsis thaliana with 6 samples.

Results

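Chlorophyll is made in the plastid by a long series of enzymes, and it is dismantled by a shorter one. The genes described here encode these enzymes and a few of their regulators in Arabidopsis thaliana. They were chosen by name from the known pathway: 26 genes of synthesis and 7 of breakdown, 33 of the 26800 gene identifiers of the deposited table. All 33 had a row and all 33 passed the filter on low counts. RNA came from whole seedlings of 12 days, grown at 22 °C in light of 100 µmol per square metre and second on agar (1%) with diluted MS medium and 1% sucrose. Of the 6 libraries, 3 are labelled wild type (accession Col-0) and 3 are labelled vih1vih2, a double mutant in VIH1 and VIH2, kinases of inositol pyrophosphate synthesis, with alleles that the sources used here do not name. The question was how transcript levels in the double mutant differ from those in Col-0.

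Chlorophyll and heme share their first steps, in which glutamate bound to its transfer RNA is turned into aminolevulinic acid and then into porphyrins. The path then divides: ferrochelatase inserts iron for heme, and magnesium chelatase inserts magnesium for chlorophyll. Free intermediates are phototoxic, so plants hold the pathway under tight control by light and by feedback. In breakdown, chlorophyll b is first reduced to chlorophyll a, the magnesium and the phytol tail are removed, and the ring is opened, a sequence best known from leaf senescence.

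Total counts lay between 42697387 and 64410871 per library. Under the label wild type VIH1 (AT5G15070) had 325, 361 and 246 counts, and under the label vih1vih2 it had 1737, 1524 and 1820. VIH2 (AT3G01310) had 2759, 2783 and 2310 against 33783, 35310 and 38660. Both targeted genes were therefore higher where the label says mutant. A count says nothing of whether the RNA encodes a working protein. All directions given here depend on the labels, which VIH1 and VIH2 did not bear out. Counts at an identifier could also be incomplete. LHCB3, an abundant antenna protein gene of green tissue, had 3 counts over all 6 libraries, while its neighbour AT5G54260 had 302.0 to 5405.7 CPM (counts scaled to library size by TMM). Within the set, HEME1, CHLD, FC1 and PAO each had the same 6 counts as an overlapping identifier on the same strand (AT3G14920, AT1G08530, AT5G26038 and AT3G44870), so their values cannot be told apart from those of that neighbour.

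The genes of synthesis were mostly lower, and those of breakdown mostly higher, in the libraries labelled vih1vih2. Of 26 synthesis genes, 14 fell and 1 rose, and of 7 breakdown genes, 5 rose and 1 fell. The 14 include FC2 of the heme branch and the regulators FLU and GLK2. "Rose" and "fell" are used of genes with an adjusted p under 0.05 in edgeR (quasi-likelihood test, Benjamini-Hochberg over the 22818 genes tested). Over all of those, 21.4% rose and 19.4% fell, 40.9% in all. The median log2 fold change, vih1vih2 over wild type, was −0.33 for synthesis and 1.01 for breakdown, against −0.0020 over all genes tested. The quartiles of all genes tested were −0.45 and 0.50, and the synthesis median lies between them. Without 1 library, 11 to 14 synthesis genes fell. HEME1 and FC2 each lost their call without any 1 of 4 libraries, and FLU without any 1 of 5. Without wild type 1 only 3 breakdown genes rose, and the breakdown gene that fell, NOL, lost its call without any of 4 libraries named below. The groups did not overlap in 19 synthesis genes (16 lower, 3 higher) or in any of the 7 breakdown genes (1 lower, 6 higher). Among all genes tested the groups did not overlap in 56.4%, with 27.5% lower and 28.9% higher. RNA was taken from whole seedlings, in which fewer green cells and less RNA per green cell cannot be told apart.

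**Figure D1:**
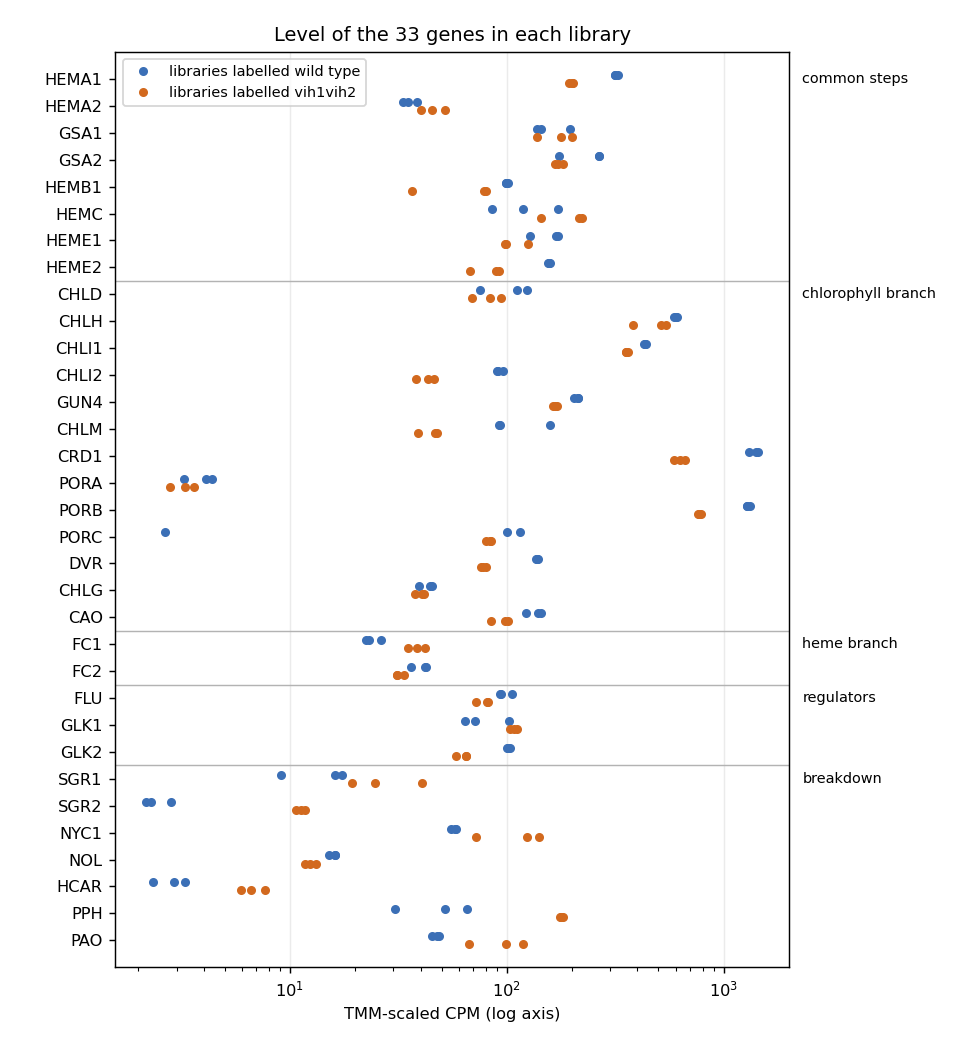
Level of each of the 33 genes in each library, as CPM scaled by TMM on a log axis, grouped by role. Blue points are the 3 libraries labelled wild type and orange points the 3 labelled vih1vih2. The single blue point of PORC at 2.66 CPM stands far from the other libraries, and the breakdown genes except NOL have their orange points to the right of the blue ones.

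The first committed step of the pathway is glutamyl-tRNA reductase, and its main gene, HEMA1 (AT1G58290), was lower. HEMA1 gave 324.8, 315.6 and 313.9 CPM in wild type and 194.1, 201.2 and 199.7 CPM in vih1vih2 libraries. The groups lay far apart and each was tight: the log2 fold change was −0.68 ± 0.04 (standard error, as in all such values below), with an adjusted p of 0.000133 by edgeR. The second isoform, HEMA2 (AT1G09940), which is known from roots and from stress, went the other way without passing the test. HEMA2 gave 38.7, 33.1 and 35.0 CPM against 52.0, 45.2 and 40.3 CPM, a log2 fold change of 0.36 ± 0.12. Its edgeR adjusted p was 0.0577, and 0.0386 without vih1vih2 3.

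The next enzyme, glutamate semialdehyde aminomutase, is encoded by GSA1 (AT5G63570) and GSA2 (AT3G48730). Neither was called: GSA1 had a log2 fold change of 0.11 ± 0.19, and GSA2 one of −0.44 ± 0.17. In GSA2, wild type 3 (174.9 CPM) lay among the libraries labelled vih1vih2 (166.5 to 181.1 CPM) and away from wild type 1 and 2 (266.8 and 265.4 CPM). Without wild type 3, GSA2 was at −0.62 and was called (adjusted p = 0.00213, edgeR). HEMB1 (AT1G69740), the aminolevulinic acid dehydratase, was steady in wild type at 98.9 to 100.8 CPM, and gave 36.5, 80.0 and 78.4 CPM in the libraries labelled vih1vih2. It was not called, at −0.62 ± 0.31, and without vih1vih2 1 it was called at −0.33 (adjusted p = 0.013, edgeR). HEMC (AT5G08280), which joins porphobilinogen into a chain, had overlapping groups that spread from 85.3 to 172.4 CPM and from 143.1 to 222.0 CPM, with a log2 fold change of 0.62 ± 0.31 that did not pass.

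Both genes of uroporphyrinogen decarboxylase, the last enzyme of this stretch in the set, fell. HEME2 (AT2G40490) gave 155.5, 159.0 and 156.1 CPM against 67.4, 88.7 and 92.4 CPM, a log2 fold change of −0.92 ± 0.13 (adjusted p = 0.00327, edgeR). HEME1 (AT3G14930) fell by 0.54 ± 0.16 on the log2 scale, from 156.6 ± 24.8 to 107.7 ± 15.6 CPM (SD, n = 3 each). Leaving out wild type 2, wild type 3, vih1vih2 1 or vih1vih2 3 ended its call, at edgeR adjusted p of 0.114 to 0.121, and its counts are those of AT3G14920 as well. In all, 3 of the 8 genes of the common steps fell and the other 5 were not called, while 19.4% of all genes tested fell.

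Among the groups of synthesis genes, the chlorophyll branch had the largest number that fell, 8 of 13, beside 19.4% of all genes tested. The other 5 were not called. The size of the change varied from gene to gene. The first enzyme of the branch is magnesium chelatase, which has 3 subunits. CHLH (AT5G13630), the subunit that carries the porphyrin, gave 588.8, 604.8 and 608.2 CPM against 541.6, 383.0 and 511.5 CPM, at −0.33 ± 0.13, and was not called. Without vih1vih2 2, the lowest library, CHLH was at −0.19 and called (adjusted p = 0.0293, edgeR). CHLD (AT1G08520), the second subunit, had overlapping groups and was at −0.34 ± 0.22, with counts shared with AT1G08530.

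The third subunit is an ATPase encoded by CHLI1 (AT4G18480) and CHLI2 (AT5G45930), and both fell, CHLI2 by more. CHLI1, the more abundant gene, gave 435.0, 436.7 and 427.6 CPM against 353.2, 355.0 and 363.0 CPM, a log2 fold change of −0.28 ± 0.03. CHLI2 gave 96.3, 91.0 and 89.7 CPM against 43.2, 38.1 and 46.3 CPM, a log2 fold change of −1.12 ± 0.09 (adjusted p = 0.000429, edgeR). In both genes the groups were tight and did not overlap. GUN4 (AT3G59400), which binds porphyrins and stimulates the chelatase, fell by 0.33 ± 0.04, from 209.8 ± 5.13 to 166.6 ± 3.91 CPM (SD, n = 3 each). Of the 1296 exon bases of GUN4, 946 overlap AT3G59410 on the opposite strand. AT3G59410 rose from 16.1 ± 1.5 to 27.3 ± 4.67 CPM. The library kit marks strand, but no source used here gives the strand setting of the counting.

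Further along, both the methyltransferase CHLM (AT4G25080) and the cyclase subunit CRD1 (AT3G56940) fell. CHLM gave 92.3, 157.5 and 92.7 CPM against 46.9, 47.8 and 38.9 CPM, and fell by 1.36 ± 0.25 on the log2 scale (edgeR adjusted p of 0.00843). Wild type 2 stood above the other libraries of its group, and without it CHLM was at −1.06, less far down than CRD1 at −1.19 and CHLI2 at −1.13 in the same fit. CRD1, also called CHL27, gave 1402.5, 1307.3 and 1443.3 CPM against 587.8, 629.7 and 662.5 CPM, a log2 fold change of −1.14 ± 0.06 (adjusted p = 0.00011, edgeR). DVR (AT5G18660), the divinyl reductase, gave 135.9, 138.2 and 139.7 CPM against 76.2, 77.9 and 80.4 CPM, at −0.82 ± 0.05. All 3 genes had groups that did not overlap.

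Protochlorophyllide oxidoreductase, the light-dependent step, has 3 isoforms, and PORB (AT4G27440) carried most of its transcripts. PORB gave 1274.3, 1282.0 and 1324.2 CPM against 784.8, 771.1 and 764.2 CPM, a log2 fold change of −0.74 ± 0.03 (adjusted p = 3.81e-05, edgeR), the smallest adjusted p of the 33 genes. PORA (AT5G54190), known from seedlings grown in darkness, was low, at 3.25 to 4.39 CPM and 2.81 to 3.62 CPM, and was not called. PORC (AT1G03630), known from plants in strong light, gave 2.66, 115.6 and 100.5 CPM in wild type and 83.8, 79.9 and 84.7 CPM in the libraries labelled vih1vih2. Wild type 1 was thus 43.4-fold below the highest wild type library, and with it PORC had a log2 fold change of 0.18 ± 1.13. Without wild type 1 the direction turned and PORC was called, at −0.39 (adjusted p = 0.0278, edgeR).

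The branch ends with CHLG (AT3G51820), chlorophyll synthase, and CAO (AT1G44446), the oxygenase that makes chlorophyll b. CHLG was not called, with overlapping groups at 43.1 ± 3.13 and 39.9 ± 1.99 CPM (SD, n = 3 each) and a log2 fold change of −0.11 ± 0.08. CAO gave 139.0, 123.0 and 143.2 CPM against 98.5, 100.8 and 84.2 CPM, and fell by 0.52 ± 0.10 on the log2 scale (adjusted p = 0.0104, edgeR).

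CRD1 and PORB were the best-expressed members per length in both groups. CRD1 had 927.2 CPM per kb of exon in wild type and 419.7 in the libraries labelled vih1vih2, and PORB had 788.2 and 471.3, so that their order changed. CHLI1 was at place 3 in both groups. The sequences before the annotated starts of CRD1 (chr3:21076505-21078443, plus strand) and PORB (chr4:13725546-13727440, plus strand) are shown because these genes carried most of the drop in CPM of the branch. Each runs over 250 bases up to the start of the RefSeq gene model in TAIR10.1, CRD1 at chr3:21076255-21076504 and PORB at chr4:13725296-13725545. In CRD1 the first capitals mark a match to GNATATNC (P1BS, bound by the phosphate regulator PHR1) and the second a G-box (CACGTG). In PORB the first and last capitals mark CCAATC, a motif reported for GLK factors, and the middle ones AAAATATCT, the evening element.
CRD1: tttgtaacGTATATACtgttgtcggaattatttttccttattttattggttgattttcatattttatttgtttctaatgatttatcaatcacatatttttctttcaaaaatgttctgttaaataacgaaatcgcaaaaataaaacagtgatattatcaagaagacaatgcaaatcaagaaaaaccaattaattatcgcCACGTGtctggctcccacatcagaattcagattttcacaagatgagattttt
PORB: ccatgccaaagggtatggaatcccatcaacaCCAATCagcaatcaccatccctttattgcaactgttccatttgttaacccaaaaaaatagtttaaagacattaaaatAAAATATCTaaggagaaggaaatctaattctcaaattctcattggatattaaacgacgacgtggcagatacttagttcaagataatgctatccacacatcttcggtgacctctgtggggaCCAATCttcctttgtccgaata

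Motifs were sought on both strands of the same 250 bases before 27443 nuclear genes. P1BS matched before 2 of the 26 synthesis genes, CHLH and CRD1 (7.69%, against 5.46% of all), and before none of the 7 breakdown genes. The G-box matched before 3 synthesis genes, CRD1, CAO and FC2 (AT2G30390) (11.5%, against 6.49%), and CCAATC before 3, GSA2, GUN4 and PORB (11.5%, against 10.2%). The evening element matched before PORA and PORB (7.69%, against 2.36%), and the I-box (GATAAG) before PORA and GLK1 (AT2G20570) (7.69%, against 12.3%). ACGT, the core held within the G-box, matched before 15 synthesis genes (57.7%, against 44.1%). A match describes letters in this window and is not a shown binding site.

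**Figure D2:**
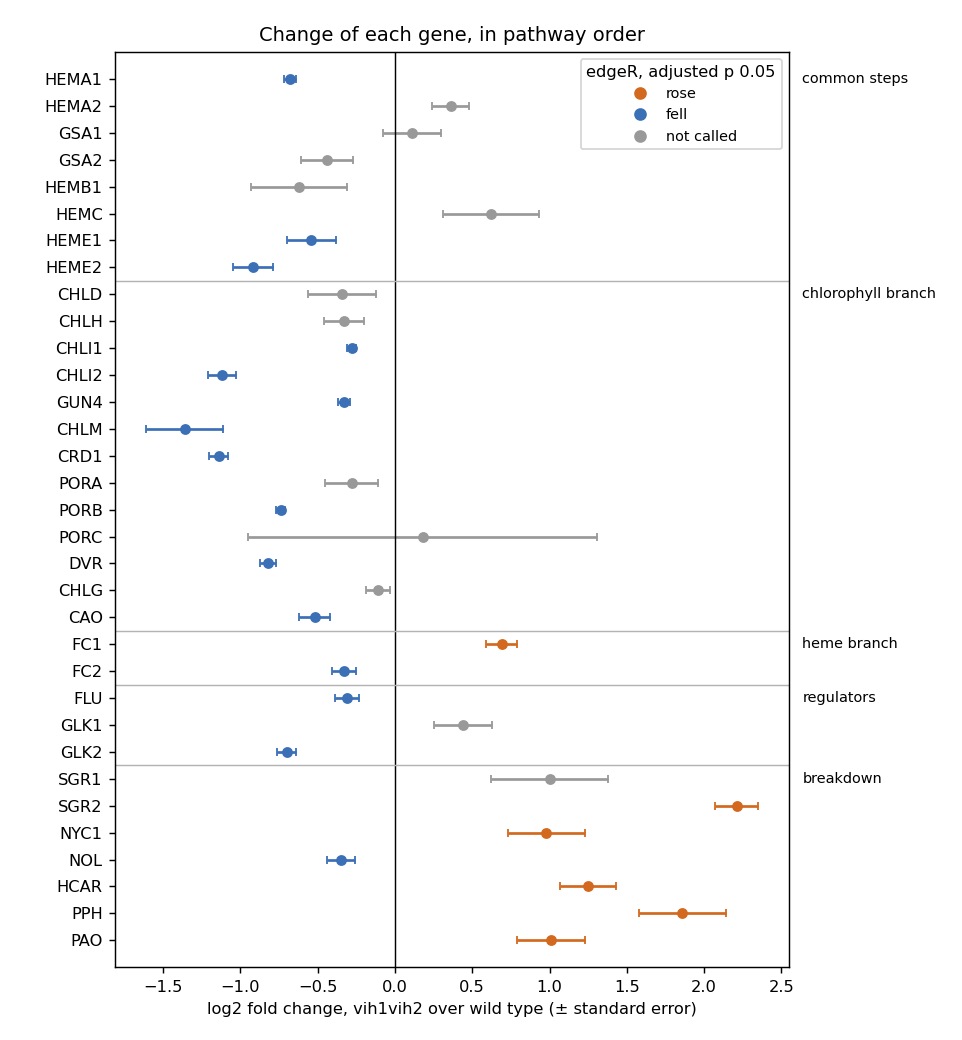
Log2 fold change of each gene, vih1vih2 over wild type, with its standard error from the edgeR fit of 3 against 3 libraries, in pathway order from top to bottom. Blue, orange and grey points fell, rose or were not called at an adjusted p of 0.05. Blue points fill most of the chlorophyll branch, orange points most of breakdown, and the wide bar is PORC, at 0.18 ± 1.13.

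The heme branch begins with ferrochelatase, and its 2 genes moved apart. FC1 (AT5G26030), which is known to be expressed in all organs and to respond to stress, gave 23.2, 22.4 and 26.4 CPM against 35.1, 38.7 and 42.0 CPM, and rose by 0.69 ± 0.10 on the log2 scale (adjusted p = 0.00443, edgeR). FC1 shares 77 stretches of 50 bases with AT5G26038, whose row is identical, so this value covers both. FC2, known from green tissue, gave 42.2, 36.3 and 42.1 CPM against 31.3, 33.6 and 31.1 CPM, and fell by 0.33 ± 0.08. Leaving out wild type 1, wild type 3, vih1vih2 1 or vih1vih2 3 ended the FC2 call, at edgeR adjusted p of 0.0811 to 0.0837.

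Of the 3 regulators in the set, FLU (AT3G14110) and GLK2 (AT5G44190) fell. FLU, which holds back aminolevulinic acid synthesis in darkness, fell by 0.31 ± 0.08, from 97.4 ± 6.90 to 78.5 ± 5.31 CPM (SD, n = 3 each). Its call was lost without any 1 library except wild type 3, at edgeR adjusted p of 0.0546 to 0.0735. GLK1 and GLK2 are related transcription factors that activate genes of chlorophyll synthesis and light harvesting. GLK2 gave 101.6, 103.2 and 100.3 CPM against 58.1, 64.7 and 64.5 CPM, a log2 fold change of −0.70 ± 0.06 (adjusted p = 0.000676, edgeR). GLK1 gave 71.1, 102.6 and 64.3 CPM against 103.7, 111.8 and 107.8 CPM, at 0.44 ± 0.19, and was not called. Wild type 2 reached almost to the libraries labelled vih1vih2, and without it GLK1 was called, at 0.67 (adjusted p = 0.00561, edgeR).

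Breakdown of chlorophyll b starts with its reductases NYC1 (AT4G13250) and NOL (AT5G04900), which moved in opposite directions. NYC1 gave 55.4, 57.7 and 58.0 CPM in wild type and 72.2, 124.1 and 141.1 CPM in the libraries labelled vih1vih2, and rose by 0.98 ± 0.25 on the log2 scale (adjusted p = 0.0276, edgeR). The libraries labelled vih1vih2 spread over 1.95-fold, and the call was lost without any 1 library except vih1vih2 1, at edgeR adjusted p of 0.0700 to 0.0815. NOL gave 15.2, 16.1 and 16.1 CPM against 12.4, 11.7 and 13.2 CPM, and fell by 0.35 ± 0.09. Leaving out wild type 2, wild type 3, vih1vih2 1 or vih1vih2 2 ended the NOL call, at edgeR adjusted p of 0.0572 to 0.0675. HCAR (AT1G04620), the hydroxymethyl chlorophyll a reductase that completes the conversion, was low but higher in every library labelled vih1vih2: it gave 2.91, 3.27 and 2.33 CPM against 7.64, 5.95 and 6.62 CPM, a log2 fold change of 1.25 ± 0.18 (adjusted p = 0.00343, edgeR).

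SGR1 (AT4G22920) and SGR2 (AT4G11910) belong to the STAY-GREEN family, in which SGR1 removes magnesium from chlorophyll a. SGR2 had the largest log2 fold change of the 33 genes in absolute size. It gave 2.17, 2.82 and 2.28 CPM under the label wild type and 11.2, 11.7 and 10.7 CPM under the label vih1vih2, and rose by a log2 fold change of 2.21 ± 0.14 (adjusted p = 0.000177, edgeR). SGR1 gave 17.3, 9.06 and 16.2 CPM against 19.3, 40.8 and 24.7 CPM. Its groups did not overlap, but libraries within them differed by up to 1.91-fold and 2.12-fold, and at 1.00 ± 0.38 SGR1 was not called (adjusted p = 0.0871, edgeR).

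PPH (AT5G13800), the pheophytinase that removes the phytol tail, and PAO (AT3G44880), the oxygenase that opens the ring, both rose. PPH gave 52.1, 30.5 and 65.3 CPM against 181.1, 178.1 and 176.2 CPM, 3.62-fold higher (log2 fold change 1.86 ± 0.28, adjusted p = 0.00447, edgeR). In level per length PPH stood at place 25 of 33 in wild type and at place 10 in the libraries labelled vih1vih2. PAO gave 45.3, 48.6 and 47.8 CPM against 119.1, 66.6 and 99.0 CPM, at 1.01 ± 0.22. The PAO call was lost without wild type 1 (adjusted p = 0.0514, edgeR), and its counts are also those of AT3G44870.

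The sequences before SGR2 (chr4:7156150-7158047, plus strand) and NOL (chr5:1434774-1437495, plus strand) are shown because they are the breakdown genes with a G-box in this window, and one rose while the other fell. They lie at chr4:7155900-7156149 and chr5:1434524-1434773 of TAIR10.1. In SGR2 the first capitals mark an I-box on the opposite strand and the second the G-box; in NOL the capitals mark the G-box. The G-box was thus found before 2 of the 7 breakdown genes (28.6%, against 6.49% of all), the I-box before SGR2 and the evening element before NYC1 (14.3% each, against 12.3% and 2.36%), CCAATC before none, and ACGT before SGR1, SGR2 and NOL (42.9%, against 44.1%).
SGR2: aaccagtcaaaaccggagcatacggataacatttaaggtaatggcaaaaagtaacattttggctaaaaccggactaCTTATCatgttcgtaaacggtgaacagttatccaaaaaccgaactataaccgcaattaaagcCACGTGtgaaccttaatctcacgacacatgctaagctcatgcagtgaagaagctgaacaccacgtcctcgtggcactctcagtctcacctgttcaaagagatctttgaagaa
NOL: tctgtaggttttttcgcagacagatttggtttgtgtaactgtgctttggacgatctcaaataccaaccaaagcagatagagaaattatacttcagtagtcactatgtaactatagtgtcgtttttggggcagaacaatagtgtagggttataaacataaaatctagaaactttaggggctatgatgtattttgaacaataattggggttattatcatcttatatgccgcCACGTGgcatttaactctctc

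Several steps have a pair of genes, and the ratio of the pair within a library does not depend on scaling. Of 10 pairs compared, the ratios of the groups did not overlap in 7. Single genes already did not overlap in 56.4% of cases and no share over other pairs was computed, so this count is a description and says nothing particular to these pairs. For each of these the two-sided exact permutation p was 0.1, the smallest that 3 against 3 libraries can give, and 0.143 adjusted over the 10 pairs, so no pair could pass. The 2 members of a pair shared no stretch of 50 bases in any of the 10. The log2 ratio of HEMA1 to HEMA2 went from 3.16 ± 0.09 to 2.12 ± 0.21 (SD, n = 3 each, as below), and that of CHLI1 to CHLI2 from 2.23 ± 0.05 to 3.07 ± 0.13. The more abundant gene thus lost ground in the first pair and gained it in the second.

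FC1 went from below FC2 (−0.74 ± 0.10) to above it (0.27 ± 0.14), and GLK1 likewise relative to GLK2 (−0.39 ± 0.33 to 0.79 ± 0.05). The ratio of NYC1 to NOL went from 1.85 ± 0.01 to 3.12 ± 0.51. PORA gained on PORB, from −8.37 ± 0.21 to −7.90 ± 0.20. For PORB over PORC the difference was −2.14 with all libraries and −0.37 without wild type 1. The groups overlapped for GSA1 over GSA2, HEME1 over HEME2 and SGR1 over SGR2, with an exact permutation p of 0.2 each.

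**Figure D3:**
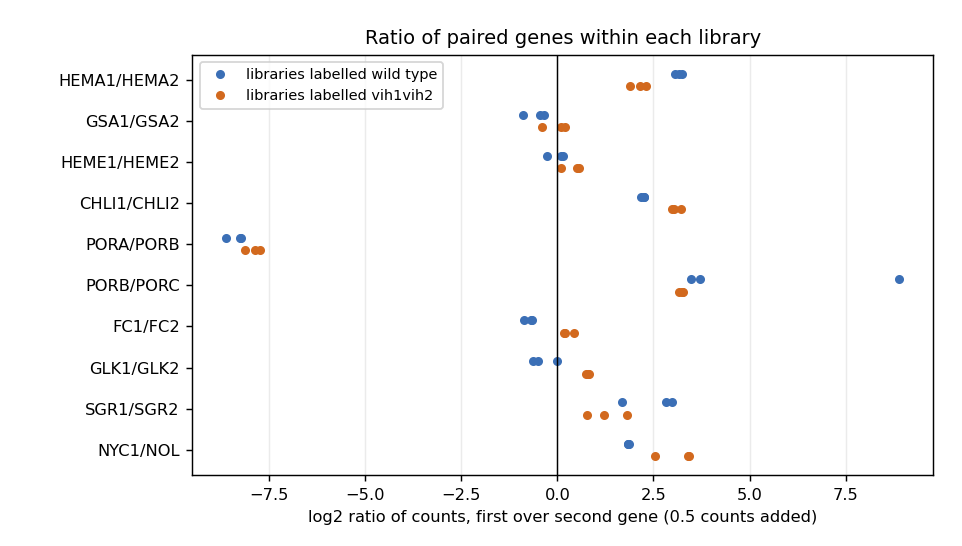
Log2 ratio of the counts of 2 genes of the same step or family in each library, with 0.5 counts added to each gene. Blue points are libraries labelled wild type and orange points those labelled vih1vih2; the vertical line marks equal counts. FC1/FC2 and GLK1/GLK2 have their blue points at or below 0 and their orange points above it, and the single blue point near 9 for PORB/PORC is wild type 1.

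Summed over the genes, the chlorophyll branch held 4504.1 to 4749.6 CPM in wild type and 2756.1 to 2940.4 CPM in vih1vih2 libraries, a ratio of 0.621. The 7 breakdown genes held 168.1 to 207.9 CPM against 423.0 to 471.6 CPM, a ratio of 2.35. All 26 synthesis genes together held 6176.3 to 6299.9 CPM in wild type and 4104.6 to 4311.3 CPM in vih1vih2 libraries. The breakdown sum was 3.08%, 2.67% and 3.31% of this synthesis sum in wild type and 9.91%, 10.7% and 10.9% in the libraries labelled vih1vih2. These sums are dominated by a few abundant genes.

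Genes for the antenna proteins that bind chlorophyll were lower as well. Of the 12 light-harvesting genes tested, 11 fell, with a median log2 fold change of −1.52, and LHCA1 went from 4354.5 ± 470.0 to 1018.3 ± 1.23 CPM (SD, n = 3 each). Their summed CPM was 17.9, 17.0 and 16.9 times that of the chlorophyll branch in wild type and 9.51, 10.3 and 9.40 times in the libraries labelled vih1vih2. This list holds LHCB3, which had almost no counts. With 4 genes of the Rubisco small subunit, the list of green tissue markers had 16 tested members, of which 14 fell and all 16 had estimates below 0. This longer list summed to 87014.7 to 94797.8 CPM against 35461.7 to 36860.2 CPM. LHCB1.3 alone held 29341.4 of the mean sum of 91177.5 CPM in wild type. The Rubisco genes RBCS1A and RBCS1B fell by 0.37 ± 0.02 and 0.52 ± 0.12 on the log2 scale, and RBCS2B fell by 1.32 ± 0.07. RBCS3B had 360441, 44 and 127472 counts in wild type. LHCA2 had 8931, 65045 and 11513 counts under the label vih1vih2, and RBCS3B and LHCA2 were not called. Of 15 root markers, 5 fell and 10 were not called, while 19.4% of all genes tested fell. CASP1 and CASP2 of the Casparian strip fell, at −1.43 ± 0.07 and −2.24 ± 0.18. SCR, MYB36 and ESB1 of the same list were at 0.68 ± 0.33, 0.34 ± 0.13 and 0.49 ± 0.47, and were not called. Estimates lay above 0 in 6 root markers and below 0 in 9. By edgeR 0 root markers rose, 1 at an unadjusted p under 0.05 and 1 by DESeq2. The root markers summed to 209.4 to 221.3 CPM against 185.1 to 189.4 CPM. The part of organ proportions in the changes of the chlorophyll genes was not tested.

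Other enzymes of the tetrapyrrole pathway were read from a list of 20 genes outside the set. Of 19 tested, 7 fell and 1 rose, with a median log2 fold change of −0.16. Over all genes tested 19.4% fell and 21.4% rose, with quartiles of −0.45 and 0.50. CHLP, the reductase that makes the phytol tail, fell from 1710.7, 1695.3 and 1809.8 CPM to 472.1, 677.3 and 649.0 CPM, at −1.54 ± 0.14 (adjusted p = 0.000788, edgeR). HEMA3, a further gene of the glutamyl-tRNA reductase family, was scarce, with 98, 107 and 71 counts against 16, 0 and 21 counts, and fell (adjusted p = 0.0459, edgeR). Its call ended without any 1 library except vih1vih2 2, at edgeR adjusted p of 0.0703 to 0.115. HEMD, the uroporphyrinogen III synthase, gave 23.5 to 28.2 CPM against 17.7, 7.98 and 7.83 CPM and fell by 1.21 ± 0.36 on the log2 scale. Its call ended without any 1 library except vih1vih2 1, at edgeR adjusted p of 0.0829 to 0.11. GBP, which binds glutamyl-tRNA reductase, and HEMF1, the coproporphyrinogen oxidase, fell by 0.51 ± 0.05 and 0.40 ± 0.04. The gene that rose was HO2, of the heme oxygenase family, at 1.94 ± 0.34, whereas HO1, the main heme oxygenase, was at 0.13 ± 0.12 and not called.

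Among 10 other genes of breakdown and phytol recycling, 5 rose and 2 fell, with a median of 0.49. Over all genes tested 21.4% rose and 19.4% fell, and the upper quartile was 0.50. CLH1, a chlorophyllase known to be induced by jasmonate, went from 28.3, 22.3 and 25.9 CPM to 254.0, 246.8 and 227.8 CPM, 9.53-fold higher (adjusted p = 2.86e-05, edgeR). RCCR, which acts right after PAO, rose 3.13-fold, and TIC55 and CYP89A9, which modify the opened ring, rose by 0.72 ± 0.05 and 0.53 ± 0.11 on the log2 scale. MES16, a later enzyme, was at 0.91 ± 0.50 and not called. The phytol kinase VTE5, at −1.87 ± 0.48, and SGRL, a relative of SGR1, at −0.83 ± 0.21, fell. Without 1 library the count that fell was 0 or 1: the VTE5 call was lost without any 1 library except wild type 3 (edgeR adjusted p of 0.0731 to 0.0858), and the SGRL call without any 1 wild type library (0.0590 to 0.0719).

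Regulators known to act on these genes were read from a pair of lists. Of 16 regulators of breakdown, 15 were tested. Of these 7 rose and 8 were not called, with a median of 0.42, while 21.4% of all genes tested rose. Estimates lay above 0 in 9 and below 0 in 6. Those that rose included the NAC factors ORE1 at 2.95 ± 0.06, NAC019 at 5.79 ± 0.21, NAC055 at 3.55 ± 0.42, NAC072 at 1.07 ± 0.12 and NAC016 at 1.45 ± 0.28, and the bZIP factor ABI5 at 0.96 ± 0.15. The NAC factors NAC046 and NAP were at −0.35 ± 0.20 and −0.19 ± 0.38, and were not called. MYC2, not tested, had 0 counts in every wild type library and 0, 243 and 165 counts under the label vih1vih2. EIN3, of ethylene signalling, was level at 281.9 ± 6.43 and 277.3 ± 6.60 CPM (SD, n = 3 each). Of 11 regulators of synthesis, 1 fell and the other 10 were not called, while 19.4% of all genes tested fell. In some of the 10, libraries of a group lay far apart, as in PIF5 at 139.4, 7.1 and 63.2 CPM in wild type. The gene that fell was PIF4, a bHLH factor of light signalling, at −0.94 ± 0.19; 2 fell without vih1vih2 1, and 1 rose without vih1vih2 2.

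**Figure D4:**
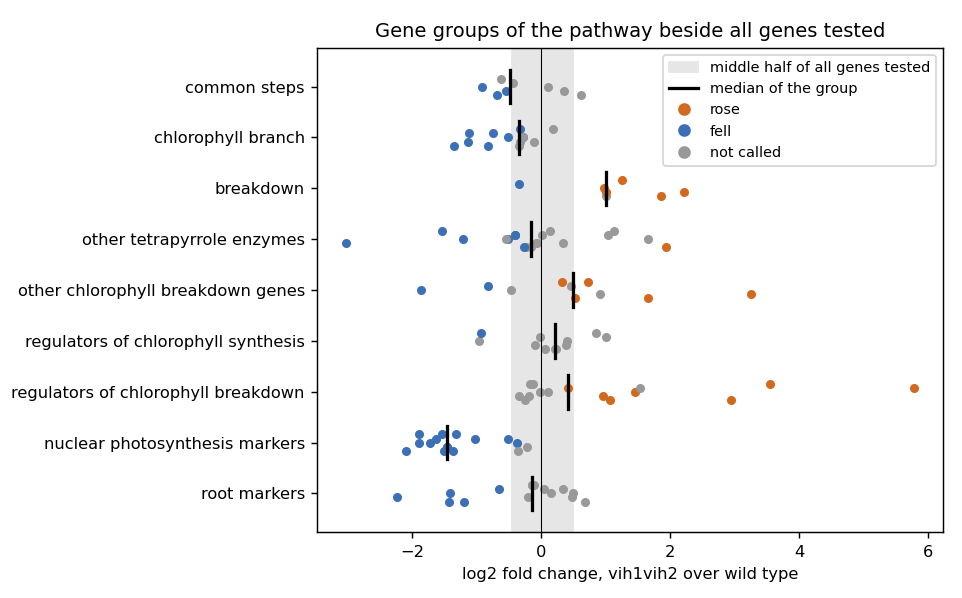
Log2 fold change, vih1vih2 over wild type, of each tested gene by group, with the group's median as a black bar; orange rose, blue fell, grey was not called. The grey band holds the span between the quartiles of all 22818 genes tested, from −0.45 to 0.50. The medians of breakdown (1.01) and of the nuclear photosynthesis markers (−1.46) lie well outside the band, that of the common steps (−0.49) just outside it, and those of the chlorophyll branch (−0.34) and the root markers (−0.15) inside it.

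Steadiness differed between the genes. In 11 of the 33 (33.3%) the highest library of a group was more than 1.5-fold above the lowest, and the same held for 35.0% of all 16599 genes with a mean of at least 5 CPM. Whether the replicates were grown separately is not said in the labels. The p-values thus cover the spread between these samples, and that spread may be technical.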

How the data were processed

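Raw counts per gene identifier were deposited by the authors for 6 libraries. Per the submitters' processing notes, the build was TAIR10 and the tools were STAR 2.5.3a, StringTie 1.3.3b and CASAVA 1.4; no source used here gives the counter, its strand setting or the annotation. Identifiers with 6 digits (280 of 27080) repeated the counts of their first 5 digits and were left out. Counts were filtered (filterByExpr), scaled by TMM and tested with edgeR 4.0.16 (glmQLFit, glmQLFTest, group as the only term) in R 4.3.3. Exon lengths, coordinates and sequences came from RefSeq's annotation of TAIR10.1. The members and lists were chosen with earlier results of these data known. Named genes are all 33 members, VIH1, VIH2 and, from each other list, up to 6 called genes of largest absolute change with a mean of at least 1 CPM and up to 3 genes not called of highest mean CPM. AT5G54260, AT3G59410, LHCB3, MYB36, ESB1, NAC046, NAP, MYC2, LHCB1.3, RBCS1A, RBCS1B and RBCS2B were chosen after their values were seen. Alternatives were DESeq2 1.42.0 (size factors, Wald test), limma-voom (limma 3.58.1), other filters, thresholds and gene sets, each library left out and a replicate block. No 2 libraries of a group were copies (chi-square per degree of freedom of 121 to 148). Intervals of counting error are not given. Figures were drawn with matplotlib 3.10.9.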

Additional observations from a re-analysis of the deposited data

How the results depend on the processing

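Across DESeq2's size factors, no filter, the filter of 5 CPM in 3 libraries and the removal of photosynthesis, organelle and rRNA genes, every count of calls stayed within 1.5 times its value and no direction of a named gene turned. DESeq2's Wald test called 2 synthesis genes, 2 other tetrapyrrole enzymes, 2 regulators of synthesis and 1 root marker higher. Of all genes it called 5800 higher and 5329 lower, against 4891 and 4433 in the main fit. With limma-voom 1 of the other breakdown genes was lower. A threshold of 0.01 left 3 breakdown genes higher and 0 lower, 3 other breakdown genes higher and 0 lower, 0 regulators of synthesis lower, and 3136 and 2623 of all genes higher and lower. Testing against 1.5-fold with glmTreat left 0 synthesis genes higher and 7 lower, 3 breakdown genes higher and 0 lower, 1 other tetrapyrrole enzyme lower, 3 other breakdown genes higher and 0 lower, 0 regulators of synthesis lower, and 2452 and 1661 of all genes; both settings are stricter by construction. Without members that share their row (chosen after seeing the data, as was robust moderation, which moved no count by over 1.5 times), 0 of 23 synthesis genes rose and 13 fell, and 4 of 6 breakdown genes rose. Without 1 library, 1 to 2 synthesis genes rose and 11 to 14 fell, 3 to 5 breakdown genes rose and 0 to 1 fell, 0 to 1 other breakdown genes fell, 0 to 1 regulators of synthesis rose and 1 to 2 fell, 0 to 1 regulators of breakdown fell, and 0 to 1 root markers rose. Calls over all genes dropped as well in these fits, to 4130 to 4377 higher and 3684 to 3775 lower. Among the members, 2 estimates reversed without 1 library: GSA1, to −0.01 without vih1vih2 1 (up to 0.28 without another library), and PORC, to −0.39 without wild type 1 (up to 0.68 without another). With all libraries PORC was at 1.64 by limma-voom and at 0.97 with the block described next, against 0.18, and neither was called. Same-numbered libraries showed no clear shared deviation (correlations of 0.029, −0.029 and −0.011). With 3 libraries per group these values cannot decide whether the numbers pair the libraries, and the labels do not say. With the replicate block 2 synthesis genes rose and 10 fell, 3 breakdown genes rose and 0 fell, and 0 other breakdown genes fell. Calls over all genes also dropped with the block, to 3463 higher and 3020 lower, from 4891 and 4433. Under that block HEMC was called (edgeR adjusted p = 0.0384), and CAO (0.0563), HEME1, FC2, FLU, NYC1, NOL and PAO were not. Only 1 of the 3 wild type and 1 of the 3 vih1vih2 libraries correlated best with its own number. Where a call moved, the cause was not tested. Members of low level, such as SGR2, HCAR and PORA, rest on fewer counts than the rest.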
